A study of Bos taurus with 4 samples.

Results

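The 9 genes described here are known as markers of endothelium, the cell layer that lines blood vessels, and were followed in cultures of bovine intramuscular preadipocytes, fat cell precursors from within skeletal muscle. The genes were VWF, EMCN, CLEC14A, APLNR, KDR, PECAM1, CDH5, TEK and TIE1. They were taken by name: every probe, control spots left out, whose gene name in the array files is one of these 9. This gave 24 probes of 43653 on the array, for 9 of 25151 genes. VWF had 7 probes, APLNR 4, PECAM1 and CDH5 3 each, EMCN and KDR 2 each, and CLEC14A, TEK and TIE1 1 each.

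The cultures formed 4 groups. The ATRA group was kept for 6 days in adipogenic medium with 1 µM all-trans retinoic acid, the 9cRA group for 6 days in that medium with 1 µM 9-cis retinoic acid, the day 6 control for 6 days in that medium with no retinoid, and the day 0 group was harvested at the start of adipogenic stimulation. The medium was Dulbecco's modified Eagle's medium with insulin (50 ng/mL), dexamethasone (0.25 µM), octanoate (5 mM), acetic acid (10 mM), fetal bovine serum (10%), penicillin (100 U/mL) and streptomycin (100 µg/mL), renewed every 2 days. ATRA and 9cRA are stereoisomers, acid forms of vitamin A that differ in geometry at a double bond. No group was kept for 6 days outside the adipogenic medium, so the effect of the medium cannot be told apart from that of time in culture. The labels do not say whether the cells are 1 clone or a mixed isolate.

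RNA was measured on 12 arrays with 1 colour (Cy3), 3 per group. The labels give 1 sample per group and do not say that its 3 arrays held separate cultures, so a p-value reflects array-to-array spread alone, possibly technical. The scanner software marked 64.8% to 74.0% of spots per array as well above background, fewest on day 6 control array 1. The number of arrays limits the precision. The arrays lay on 3 slides. All day 0 arrays shared slide 1 with the day 6 control's array 1. The other two day 6 control arrays shared slide 2 with arrays 1 and 2 of the ATRA group, whose array 3 was on slide 3 with all 9cRA arrays. No slide held 9cRA beside the day 6 control, or a retinoid group beside day 0. Levels below are signals in percent of the array's own 75th percentile, and the level of a probe does not compare with that of another probe, so levels summed over a gene list serve only to compare arrays. Differences are on the log2 scale with their SE, and a gene was called at a limma adjusted p under 0.05 over the 17622 genes tested, provided that it was well above background on at least 1 array of the compared groups.

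Endothelial cells read vascular endothelial growth factors through KDR (VEGFR2) and angiopoietins through TEK (Tie2), whose relative TIE1 modifies that signal. APLNR is the G protein-coupled receptor of apelin. PECAM1 and CDH5 (VE-cadherin) join endothelial cells to each other, CLEC14A and EMCN (endomucin) are glycoproteins of their surface, and VWF (von Willebrand factor) is a secreted protein that tethers platelets and is also made by megakaryocytes. In muscle, fat tissue lies among capillaries, and adult endothelium usually carries most of these genes together.

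The 9 genes did not move together in these cultures. VWF and EMCN were far higher in both retinoid groups than in the day 6 control. APLNR and CLEC14A gave a clear signal at day 0, and their brightest probes were at background on each of the 9 day 6 arrays, with or without retinoid. TEK was higher in the day 6 control than at day 0, KDR was dim throughout, and PECAM1, CDH5 and TIE1 were never well above background on all 3 arrays of a group. Genes with at least 1 probe well above background on all 3 arrays numbered 4 with ATRA, 4 with 9cRA, 2 in the day 6 control and 4 at day 0. With either retinoid the 4 were VWF, EMCN, TEK and KDR, at day 0 they were VWF, TEK, APLNR and CLEC14A, and in the day 6 control they were VWF and TEK. KDR missed the day 6 control count through array 1 alone, the array with the fewest spots well above background. In bulk RNA, fewer cells of a type and less RNA per cell cannot be told apart.

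**Figure D1:**
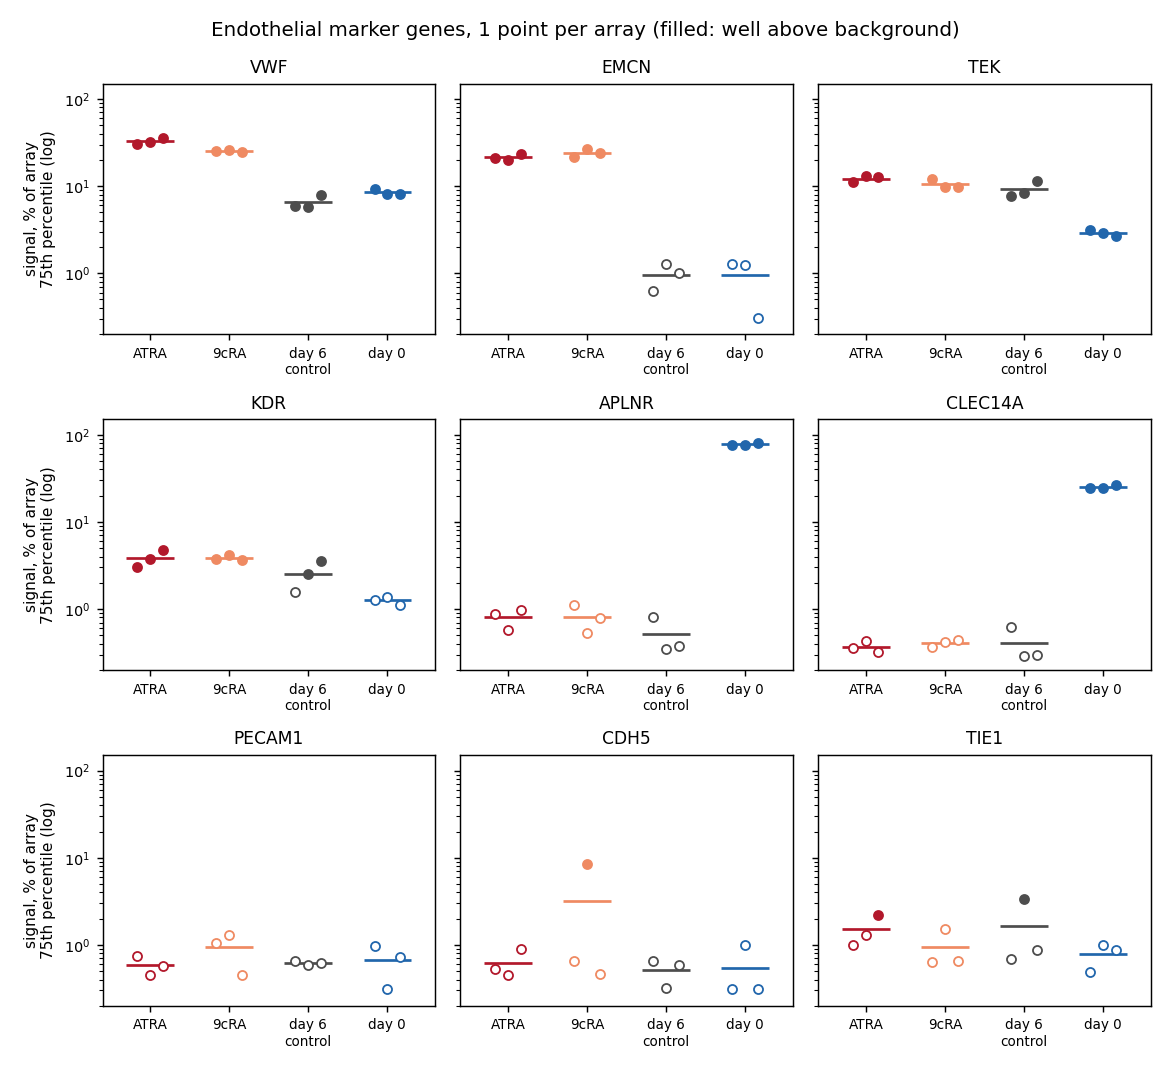
Signal of each gene's brightest probe on each array, in percent of the array's 75th percentile on a log axis, for ATRA, 9cRA, day 6 control and day 0 (points are arrays, lines are means of 3 arrays, filled points are well above background). The EMCN points with retinoid lie between 19.8% and 26.5% and those without between 0.308% and 1.27%, while APLNR and CLEC14A have filled points at day 0 only.

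The 7 VWF probes are shown because those nearest the end of the gene carried the signal and the others did not. All lie on the plus strand of chromosome 5 (UMD3.1), with positions from the array's annotation, which records neither exon nor untranslated region for a probe. They are given 5′ to 3′, in lower case as none of their bases is singled out, in the order in which they lie along the gene.
A_73_P108496: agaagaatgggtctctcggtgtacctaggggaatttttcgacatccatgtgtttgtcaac
A_73_P109231: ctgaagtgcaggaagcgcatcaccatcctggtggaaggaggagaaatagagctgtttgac
A_73_P109086: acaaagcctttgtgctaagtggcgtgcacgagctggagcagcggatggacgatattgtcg
A_73_P091586: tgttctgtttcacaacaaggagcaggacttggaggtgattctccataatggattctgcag
A_73_P450736: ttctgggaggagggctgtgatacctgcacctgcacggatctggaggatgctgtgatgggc
A_73_P138521: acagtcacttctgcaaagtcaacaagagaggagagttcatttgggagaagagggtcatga
A_73_118403: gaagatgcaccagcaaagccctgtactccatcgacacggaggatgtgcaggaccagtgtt

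The last of these, A_73_118403 (chr5:104727114-104727173), was the brightest VWF probe and stands for the gene. It read 30.4%, 32.2% and 35.5% on the ATRA arrays, 25.0%, 25.6% and 24.4% on the 9cRA arrays, 5.89%, 5.78% and 7.85% on the day 6 control arrays and 9.26%, 8.15% and 8.02% on the day 0 arrays. All 12 spots were well above background. In order of level the groups were ATRA, 9cRA, day 0 and day 6 control, and no pair of them overlapped. VWF was 2.34 ± 0.11 higher with ATRA than in the day 6 control (adjusted p = 8.3e-08) and 1.96 ± 0.11 higher with 9cRA (adjusted p = 3.3e-07). Within slide 2, which held 2 arrays each of ATRA and day 6 control, the difference was 2.22. In the day 6 control VWF was lower than at day 0, with a difference of -0.39 ± 0.11 (adjusted p = 0.012), and -0.52 within slide 1. Both retinoid groups also stood above day 0, ATRA by 1.95 ± 0.11 and 9cRA by 1.56 ± 0.11.

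The probe 4335 bases upstream, A_73_P138521, had its group means in the same order, but day 6 control and day 0 overlapped. It read 13.2%, 13.1% and 15.1% with ATRA, 10.9%, 10.9% and 10.8% with 9cRA, 1.91%, 2.04% and 3.102% in the day 6 control and 3.44%, 3.66% and 2.79% at day 0. Its differences from the day 6 control were 2.59 with ATRA and 2.25 with 9cRA, and 1 of the 3 day 6 control spots was not well above background. The probe 17480 bases upstream, A_73_P450736, averaged 4.87% ± 0.36 with ATRA, 4.49% ± 0.71 with 9cRA and 1.37% ± 0.19 in the day 6 control (SD, n = 3 each), and was called against that control with ATRA (adjusted p = 0.010) and with 9cRA (adjusted p = 0.015). At day 0 it read 1.91%, 1.82% and 8.59%, so array 3 stood apart from the other two, and its difference between the day 6 control and day 0 was not called (adjusted p = 0.052). The 4 probes 38186 to 114396 bases upstream were well above background on 2 of their 48 spots. The RNA was amplified from a poly-dT primer, which favours sequence near the 3′ end. Its part in this pattern was not tested.

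**Figure D2:**
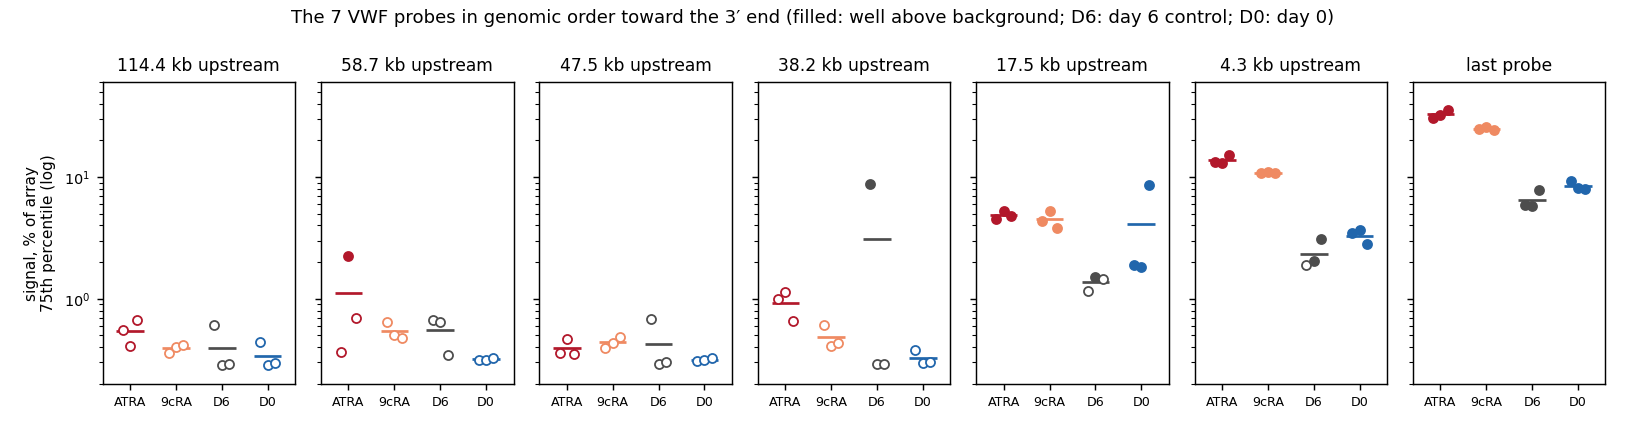
The 7 VWF probes from the farthest upstream (left) to the last (right), with genomic distance to the last probe above each panel. Each panel gives percent of the array's 75th percentile on a log axis for ATRA, 9cRA, day 6 control (D6) and day 0 (D0), with arrays as points (filled where well above background) and means as lines. In the 3 rightmost panels all ATRA and 9cRA points are filled and lie above all day 6 control points.

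EMCN, the endomucin gene, gave a clear signal with either retinoid and was below background at its brighter probe without. Its 2 probes lie on chromosome 6 (25699975 to 25700034 and 25700085 to 25700144, plus strand). The brighter read 21.0%, 19.8% and 23.3% with ATRA and 21.6%, 26.5% and 24.0% with 9cRA, against 0.618%, 1.27% and 0.999% in the day 6 control and 1.27%, 1.25% and 0.308% at day 0. All 6 retinoid spots and none of the other 6 were well above background. A group at background has only a bound, so EMCN was at least 11.6-fold higher with ATRA than in the day 6 control (adjusted p = 2.6e-05) and at least 13.05-fold higher with 9cRA (adjusted p = 2.1e-05). Here and below, such a bound divides the bright group's mean by a ceiling for the dim group, averaged over its arrays, which is the probe's own signal or the array's lowest signal well above background, whichever is higher. Against day 0 the bounds were 14.6-fold for ATRA and 16.4-fold for 9cRA. EMCN passed the filter on low signals only through the retinoid groups, so its p-values for those groups add no support. The second probe averaged 11.1% ± 1.0 with ATRA, 12.2% ± 1.4 with 9cRA, 0.959% ± 0.470 in the day 6 control and 0.458% ± 0.175 at day 0 (SD, n = 3 each), and was called with ATRA (adjusted p = 8.4e-06) and 9cRA (adjusted p = 7.0e-06) against the day 6 control. Between day 6 control and day 0 the second probe differed by 1.03 (adjusted p = 0.019), with overlapping arrays and 1 of these 6 spots well above background. The brighter probe, below background in both, gives no order.

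CLEC14A, a C-type lectin of the endothelial surface, was measured at day 0 only. Its probe (chromosome 21, 48843747 to 48843806, minus strand) read 0.354%, 0.432% and 0.324% with ATRA, 0.369%, 0.416% and 0.440% with 9cRA and 0.623%, 0.288% and 0.299% in the day 6 control, against 24.4%, 24.7% and 26.4% at day 0. None of the 9 day 6 spots was well above background and all 3 day 0 spots were. CLEC14A was at least 13.7-fold lower in the day 6 control than at day 0 (adjusted p = 1.2e-08), at least 14.3-fold lower with ATRA and at least 12.8-fold lower with 9cRA. The day 6 groups have no order among themselves. CLEC14A passed the filter on low signals only through day 0, so its p-value against day 0 adds no support.

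APLNR, the apelin receptor gene, followed the same course. Its brightest probe, nearest the 3′ end (chromosome 15, 81734845 to 81734903, minus strand), read 0.881%, 0.579% and 0.972% with ATRA, 1.11%, 0.527% and 0.784% with 9cRA and 0.818%, 0.349% and 0.372% in the day 6 control, against 77.2%, 76.2% and 80.4% at day 0. It was at least 42.5-fold lower in the day 6 control than at day 0 (adjusted p = 3.6e-08), at least 44.3-fold lower with ATRA and at least 39.7-fold lower with 9cRA. This probe too passed the filter on low signals only through day 0, so the p-value adds no support. Within slide 1, where day 6 control array 1 met the day 0 arrays, the fitted differences were -6.57 for APLNR and -5.34 for CLEC14A. On that day 6 array both were below background, at 0.818% and 0.623%, so these values are no measured folds. The lowest signal well above background there was 3.02%. The other 3 APLNR probes, 888 to 1845 bases upstream, did not pass the filter on low signals. The nearest of them was well above background on 2 of 3 day 0 arrays, where it averaged 1.92% ± 0.45 (SD, n = 3), on none in the day 6 control and on 1 with ATRA.

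TEK, the angiopoietin receptor gene, was well above background on all 12 arrays. Its probe (chromosome 8, 17040337 to 17040396, minus strand) read 11.01%, 13.0% and 12.6% with ATRA, 11.98%, 9.66% and 9.83% with 9cRA, 7.79%, 8.24% and 11.5% in the day 6 control and 3.14%, 2.92% and 2.69% at day 0. Day 0 lay below every other array, while the 3 day 6 groups overlapped in every pair. TEK was 1.63 ± 0.15 higher in the day 6 control than at day 0 (adjusted p = 4.0e-06), and 1.42 within slide 1. With ATRA it was 0.43 ± 0.15 higher than in the day 6 control (adjusted p = 0.035). It was no longer called under a slide block (0.30, adjusted p = 0.22), with median scaling (adjusted p = 0.050), with dim genes kept (adjusted p = 0.062), in a fit of these 2 groups alone (adjusted p = 0.087) and when any of 4 of the 6 arrays was left out. With 9cRA the difference was 0.21 (95% interval -0.12 to 0.53, adjusted p = 0.27). TIE1, the related receptor (chromosome 3, 103278202 to 103278261, minus strand), read 1.003%, 1.31% and 2.21% with ATRA, 0.633%, 1.52% and 0.658% with 9cRA, 0.686%, 3.34% and 0.877% in the day 6 control and 0.482%, 0.999% and 0.884% at day 0. Only ATRA array 3 and day 6 control array 2 were well above background, and TIE1 was not tested.

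KDR, the main VEGF receptor gene, was dim in every group. Its brighter probe (chromosome 6, 72233146 to 72233205, minus strand) read 3.08%, 3.80% and 4.73% with ATRA, 3.75%, 4.22% and 3.63% with 9cRA, 1.59%, 2.49% and 3.54% in the day 6 control and 1.29%, 1.38% and 1.11% at day 0. The retinoid spots were all well above background, the day 6 control spots on 2 of 3 arrays and the day 0 spots on none. ATRA and 9cRA overlapped, ATRA overlapped with the day 6 control, 9cRA did not, and day 0 lay below all other arrays. Against day 0, KDR was at least 1.66-fold higher in the day 6 control (fitted 0.95 ± 0.25, adjusted p = 0.0079), at least 2.62-fold higher with ATRA and at least 2.65-fold higher with 9cRA. With slide as a block these calls were lost, at 0.34 (adjusted p = 0.21), 0.55 (adjusted p = 0.14) and 0.25 (adjusted p = 0.60), and the first was also lost with normexp background correction (0.18, adjusted p = 0.073). Against the day 6 control KDR was not called with ATRA (0.66, adjusted p = 0.056) or 9cRA (0.68, adjusted p = 0.050). The ATRA difference was 0.20 within slide 2, it was called without day 6 control array 3 (0.94) and without ATRA array 1 (0.81), and both retinoids' differences were called with normexp (0.35 and 0.32). KDR passed the filter on low signals only through the retinoid groups, so its p-values for those groups add no support. The upstream KDR probe was well above background on no array.

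The junction genes PECAM1 and CDH5 were well above background on no more than 1 array of any group, and were not tested. The 3 PECAM1 probes on chromosome 19 (the brightest at 49224394 to 49224453, minus strand) had 1 spot of 36 well above background, at 1.65% on day 0 array 2. That spot was of the probe nearest the 3′ end, A_73_104687 (49176061 to 49176120), not of the brightest. This probe read 1.02%, 1.65% and 1.28% at day 0 and 0.304% to 0.681% on the day 6 arrays. The 3 CDH5 probes on chromosome 18 (the brightest at 34260240 to 34261160, plus strand, a span longer than the 60 bases of a probe) had 1 such spot of 36, at 8.57% on 9cRA array 2, where the other 9cRA arrays read 0.657% and 0.462%. The lowest signal of a probe well above background was between 1.41% and 3.02% on each array, and highest on day 6 control array 1. At these levels a difference was not detectable.

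Of the 6 genes tested, those called in each comparison are set against the share of all 17622 genes called. ATRA against day 6 control called 3 (VWF, EMCN and TEK, all higher), where 46.1% of all genes were called, 23.7% higher and 22.4% lower. 9cRA against day 6 control called 2 (VWF and EMCN, both higher), where 46.4% of all genes were called, 24.7% higher and 21.7% lower. Day 6 control against day 0 called 5 (TEK and KDR higher, APLNR, CLEC14A and VWF lower), where 62.2% of all genes were called, 30.9% higher and 31.3% lower. ATRA against day 0 called 6, 4 higher and 2 lower, where 71.5% of all genes were called, 38.7% higher and 32.8% lower. 9cRA against day 0 also called 6, 4 higher and 2 lower, where 71.3% of all genes were called, 38.9% higher and 32.4% lower. With 6 genes and such a background the counts are no result about the group, and genes that passed through the group where they were high had to differ. The comparisons against the day 6 control share its arrays, as do those against day 0. Without day 6 control array 1, which carried 103 non-uniform spots, the numbers called were 2, 2 and 5 in the first 3 comparisons. Without day 6 control array 3 they were 4, 4 and 5, with KDR added under both retinoids and TEK under 9cRA. Normexp background correction, which adds an offset of 50, gave smaller differences for VWF, EMCN, APLNR and CLEC14A, which were still called, at 1.66 for VWF and 2.16 for EMCN (ATRA against day 6 control), and -3.84 for APLNR and -2.59 for CLEC14A (day 6 control against day 0).

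**Figure D3:**
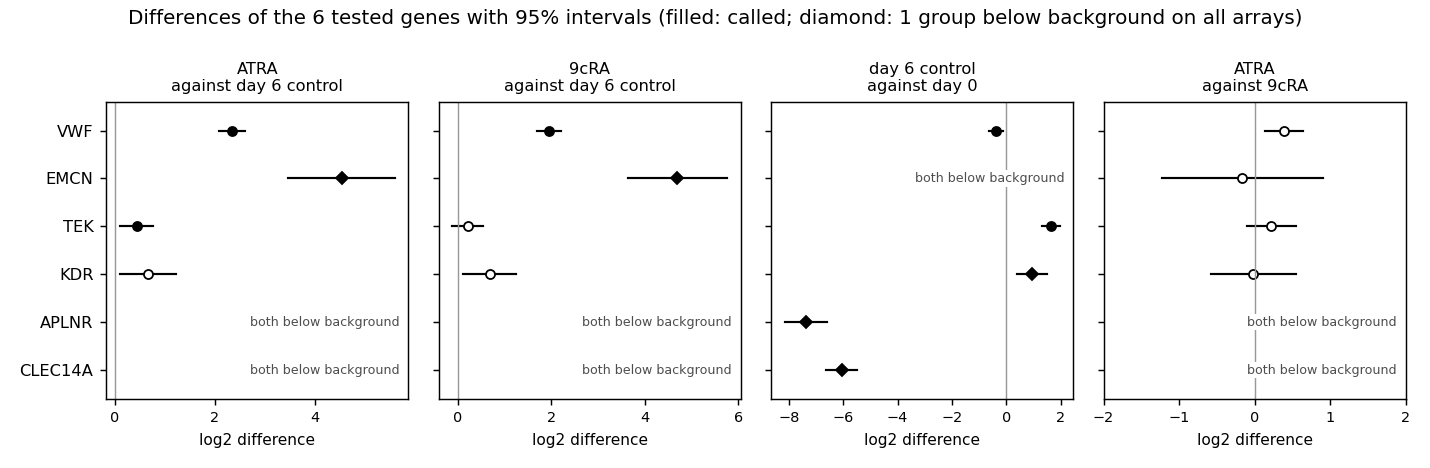
Log2 differences of the 6 tested genes with 95% intervals in 4 comparisons (filled: called, diamond: 1 group below background on all its arrays, where the fitted value is no measured fold). VWF and EMCN lie to the right of 0 with either retinoid, and APLNR and CLEC14A to the left of 0 in day 6 control against day 0.

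The stereoisomers were compared at the same dose and time, in 1 pair over all 17622 genes. Of the 6 genes 0 were called by limma, where 0.113% of all genes were called, 0.0624% higher and 0.0511% lower with ATRA. At an unadjusted p under 0.05 the count was 1 (VWF), beside 1850 genes in all. VWF was 32.7% ± 2.6 with ATRA and 25.0% ± 0.6 with 9cRA (SD, n = 3 each), and the arrays of the groups did not overlap. Its difference was 0.39 ± 0.11 (95% interval 0.13 to 0.64, not adjusted for the number of genes), with an adjusted p of 0.27. It was 0.51 within slide 3, which held 1 ATRA array, and with normexp background correction VWF was called (0.38, adjusted p = 0.048). The probe A_73_P138521 differed by 0.34 and the probe A_73_P450736 by 0.13, neither called. For EMCN the difference was -0.17 (95% interval -1.23 to 0.90), for TEK 0.22 (-0.10 to 0.55) and for KDR -0.02 (-0.58 to 0.55). These intervals leave room for differences of either sign in EMCN, TEK and KDR. Their spread was pooled over all 4 groups, so for EMCN it includes signals below background in the day 6 control and at day 0. EMCN averaged 21.4% ± 1.7 with ATRA and 24.0% ± 2.4 with 9cRA (SD, n = 3 each), and these arrays overlapped. CLEC14A and the brightest APLNR probe were below background in both groups.

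The ligands of these receptors were measured in the same cultures. Of 10 genes listed, 9 had a probe and 8 were tested. In the day 6 control against day 0, 4 rose, 2 fell and 2 were not called, and the median difference was 0.52 (blocked by slide, 0.42) beside 0.0043 over all genes. Of all genes, 62.2% were called in that comparison, 30.9% higher and 31.3% lower. PGF, placental growth factor, which binds the VEGF receptor FLT1, averaged 9.64% ± 0.77 with ATRA, 10.8% ± 0.7 with 9cRA, 83.5% ± 4.0 in the day 6 control and 0.317% ± 0.010 at day 0 (SD, n = 3 each). At day 0 it was below background on all arrays, and it was at least 57.2-fold higher in the day 6 control (adjusted p = 7.1e-13). Relative to the day 6 control its difference was -3.12 ± 0.07 with ATRA (adjusted p = 5.8e-10) and -2.95 ± 0.07 with 9cRA (adjusted p = 9.5e-10). ANGPT1, the activating ligand of TEK, rose by 4.09 ± 0.08 in the day 6 control against day 0 (adjusted p = 1.1e-10), reaching 30.3% ± 0.5 in the day 6 control against 1.78% ± 0.17 at day 0 (SD, n = 3 each).

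The VEGF genes proper went different ways. VEGFA, the main ligand of KDR, was 119.0% ± 4.0 in the day 6 control and 72.6% ± 1.8 at day 0 (SD, n = 3 each), a rise of 0.71 ± 0.07 (adjusted p = 5.6e-06). VEGFD, which in human binds KDR and the lymphatic receptor, rose by 0.70 ± 0.12 in the day 6 control. With ATRA it was 0.98 ± 0.12 higher than there, and with 9cRA 1.19 ± 0.12 higher. At day 0 and in the day 6 control VEGFD was well above background on 2 of 3 arrays. It passed the filter on low signals only through the retinoid groups, so its calls for those groups add no support. Of its 2 tested probes, 1 was called in day 6 control against day 0, 1 with ATRA and 2 with 9cRA. VEGFC fell by 0.53 on the log2 scale in the day 6 control and was 0.70 ± 0.05 higher with ATRA and 0.72 ± 0.05 higher with 9cRA than there. VEGFB, another ligand of FLT1, averaged 812.2% ± 71.6 in the day 6 control and 3195% ± 77 at day 0 (SD, n = 3 each), a change of -1.98 ± 0.06 (adjusted p = 2.2e-09). APLN, which encodes apelin, differed by 0.34 between day 6 control and day 0 (adjusted p = 0.080) and by 0.30 between ATRA and day 6 control (adjusted p = 0.14), beside the loss of signal of its receptor. ANGPT4 differed by 0.07 over culture (adjusted p = 0.65). ANGPT2, the context-dependent TEK ligand of endothelium, was well above background on 1 array of 12 and was not tested, and no probe carried the name APELA. With ATRA against day 6 control 3 ligand genes were called higher, 2 lower and 3 neither, and the median difference was 0.24 (blocked by slide, 0.16) beside 0.05 over all genes. With 9cRA 5 rose, 2 fell and 1 was not called, and the median difference was 0.28 (blocked by slide, 0.08) beside 0.06 over all genes. With slide as a block the counts under 9cRA were 2 and 1. Without the block, 46.1% of all genes were called with ATRA and 46.4% with 9cRA.

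**Figure D4:**
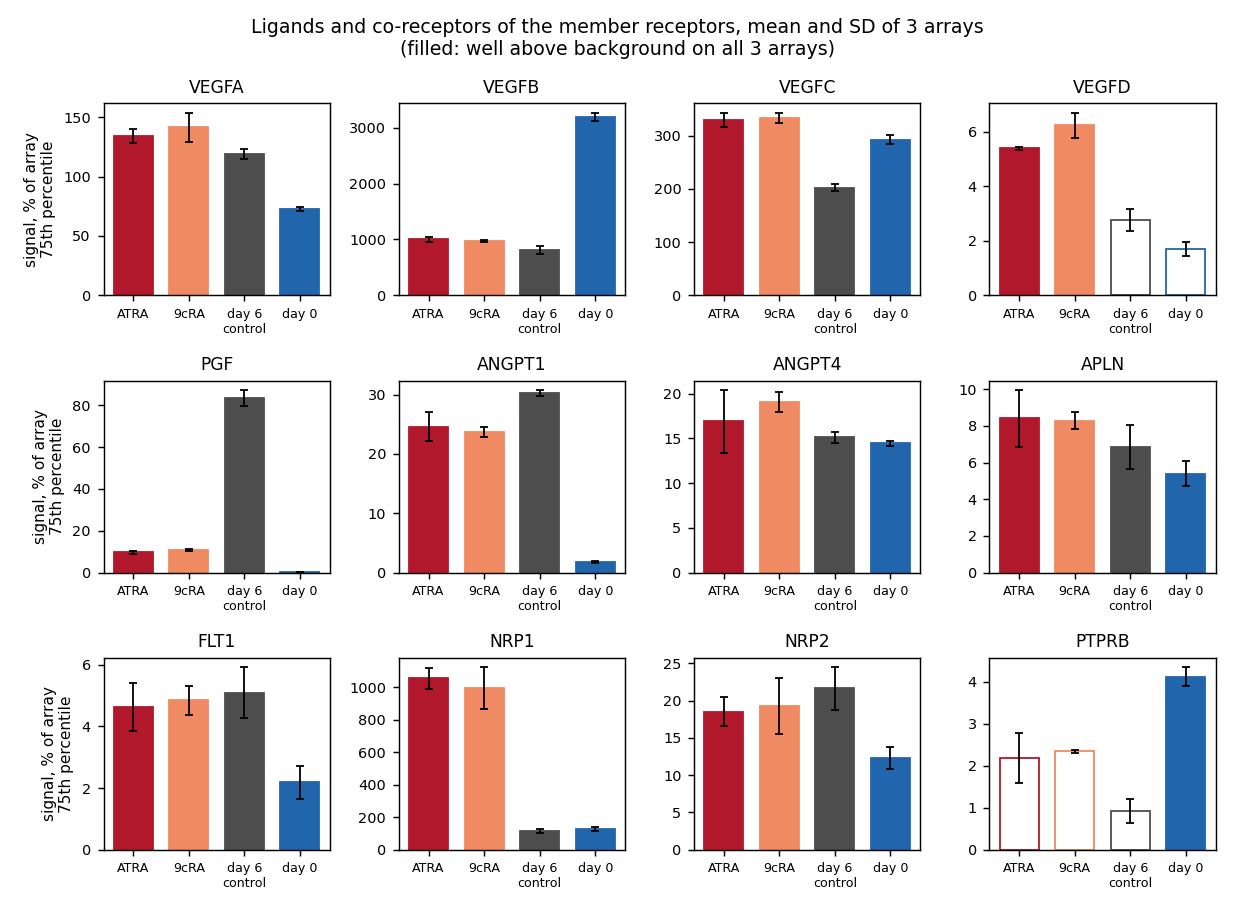
Signal in percent of the array's 75th percentile (linear axes from 0, 1 scale per panel) of ligand genes and of co-receptor and phosphatase genes for ATRA, 9cRA, day 6 control and day 0. Bars are means and lines SDs of 3 arrays, filled where all 3 arrays were well above background. PGF is highest in the day 6 control (83.5%) and NRP1 in the retinoid groups (1054% with ATRA and 994.9% with 9cRA).

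Among co-receptors and the phosphatase that acts on TEK, 6 of 7 genes listed had a probe and all 6 were tested. With ATRA against day 6 control 3 rose, 1 fell and 2 were not called, and the median difference was 0.57 (blocked by slide, 0.56). Of all genes, 46.1% were called in that comparison and 62.2% in the day 6 control against day 0. NRP1, a VEGF co-receptor, averaged 1054% ± 66 with ATRA, 994.9% ± 127.9 with 9cRA, 116.1% ± 13.8 in the day 6 control and 129.7% ± 12.6 at day 0 (SD, n = 3 each). It rose by 3.19 ± 0.12 with ATRA (adjusted p = 1.2e-08) and by 3.097 ± 0.117 with 9cRA (adjusted p = 1.6e-08), and its 3 probes gave 3.19 to 3.54 with ATRA. ITGB3, an integrin subunit that partners KDR, rose by 1.94 ± 0.15 with ATRA and 1.80 ± 0.15 with 9cRA, while its partner ITGAV fell by 0.84 with ATRA and 0.75 with 9cRA on the log2 scale. In the day 6 control against day 0, 2 of the 6 rose, 2 fell and 2 were not called, and the median difference was 0.03 (blocked by slide, -0.09). FLT1, which binds VEGF with high affinity, rose by 1.24 ± 0.20 and NRP2 by 0.81 ± 0.16. PTPRB, the endothelial phosphatase VE-PTP, was at least 2.24-fold lower in the day 6 control than at day 0 (adjusted p = 1.5e-05), at 0.920% ± 0.290 in the day 6 control against 4.12% ± 0.23 at day 0 (SD, n = 3 each). It passed the filter on low signals only through day 0, so this p-value adds no support.

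Transcription factors of endothelium were mostly present in every group. Of 20 listed, 19 had a probe, 16 were tested and 12 were well above background on all 12 arrays, while HHEX and SOX7 were on none. In the day 6 control against day 0, 3 rose, 5 fell and 8 were not called, and the median difference was -0.03 (blocked by slide, -0.07). With ATRA against day 6 control 7 rose, 3 fell and 6 were not called, and the median difference was 0.22 (blocked by slide, 0.03), and with 9cRA 7 rose, 2 fell and 7 were not called, and the median difference was 0.33 (blocked by slide, 0.02). Blocked by slide, 7 rose and 2 fell with ATRA, and 5 rose and 1 fell with 9cRA. Without the block, 46.1% of all genes were called with ATRA, 46.4% with 9cRA and 62.2% in the day 6 control against day 0. EPAS1, the hypoxia-inducible factor HIF-2α, was at 6499% ± 204 with ATRA, 6527% ± 353 with 9cRA, 1317% ± 111 in the day 6 control and 4393% ± 105 at day 0 (SD, n = 3 each). It fell by 1.74 on the log2 scale in the day 6 control against day 0 and was 2.31 ± 0.07 higher with either retinoid than in the day 6 control. GATA2 rose by 1.03 ± 0.07 with ATRA, though its 3 probes ran from 0.22 to 1.03, and FOXC2 by 1.21 ± 0.11. KLF4 fell by 1.42 on the log2 scale with ATRA. Over culture ETV2, an early regulator of endothelial fate, fell by 1.34 and FLI1 by 0.48 on the log2 scale, while the Notch target HEY1 rose by 0.996 ± 0.086.

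Further endothelial markers also split. Of 45 listed, 44 had a probe, 33 were tested and 6 (ARHGEF15, BMX, DLL4, ESAM, MMRN1 and SHE) were well above background on no array. With ATRA against day 6 control 12 rose, 10 fell and 11 were not called, and the median difference was 0.14 (blocked by slide, -0.03), and with 9cRA 11 rose, 10 fell and 12 were not called, and the median difference was 0.20 (blocked by slide, -0.09). Blocked by slide, 10 rose and 8 fell with ATRA, and 8 rose and 6 fell with 9cRA. Without the block, 46.1% of all genes were called with ATRA, 46.4% with 9cRA and 62.2% in the day 6 control against day 0. S1PR1, the sphingosine 1-phosphate receptor, rose by 2.95 ± 0.09 with ATRA and with 9cRA (lowest of its 3 probes 0.89 with ATRA and 0.71 with 9cRA). CAV1, of caveolae, fell by 2.18, TSPAN7 by 1.88 and CDH13 by 1.75 on the log2 scale with ATRA. In the day 6 control against day 0, 16 rose, 7 fell and 10 were not called, and the median difference was 0.46 (blocked by slide, 0.22). TSPAN7 rose by 3.39 ± 0.06, CAV1 by 1.30 ± 0.06 and the adhesion molecule ICAM1 by 1.29 ± 0.06, and the Notch receptor gene NOTCH4 fell by 1.39 on the log2 scale. Many of these genes, CAV1 and ICAM1 among them, are not restricted to endothelium.

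Markers of other cells place these values. Of 9 fibroblast and preadipocyte genes, 8 were well above background on all 12 arrays. Their summed level was 55000% to 60340% with ATRA, 57150% to 58690% with 9cRA, 70510% to 74310% in the day 6 control and 58200% to 60410% at day 0. PDGFRA, a receptor of fat cell precursors, rose by 2.12 ± 0.06 in the day 6 control against day 0. With ATRA it was 1.38 ± 0.06 higher than in the day 6 control. In that comparison 2 of the 9 rose, 3 fell (LUM, THY1 and DCN) and 4 were not called. LUM averaged 1605% with ATRA and 10780% in the day 6 control, THY1 1145% and 3901%, and DCN 10040% and 16140%. With 9cRA 3 rose and 3 fell, and in the day 6 control against day 0, 5 rose and 2 fell. Of all genes, 23.7% were called higher and 22.4% lower with ATRA, 24.7% and 21.7% with 9cRA, and 30.9% and 31.3% over culture. CD34, shared by precursors and endothelium, was below background without retinoid and at least 1.91-fold higher with ATRA and 2.33-fold higher with 9cRA than in the day 6 control. It too passed the filter on low signals only through the retinoid groups, so its calls there add no support. The adipocyte gene FABP4 averaged 251.2% ± 5.7 with ATRA, 311.2% ± 45.0 with 9cRA, 7719% ± 907 in the day 6 control and 378.4% ± 8.0 at day 0 (SD, n = 3 each). ADIPOQ was well above background on no array. Of 6 adipocyte genes 5 were tested. With either retinoid against day 6 control 0 rose, 1 fell and 4 were not called. Over culture without retinoid 3 rose, 0 fell and 2 were not called.

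Some markers of leukocytes and platelets were higher with retinoid, as VWF and EMCN were. Of 12 listed, 11 had a probe and 8 were tested, and CD3E of T cells and PF4 of platelets were well above background on no array. Their summed level was 516.0% to 536.6% with ATRA, 487.1% to 543.7% with 9cRA, 202.5% to 298.9% in the day 6 control and 258.7% to 291.7% at day 0. With ATRA against day 6 control 6 of the 8 rose, 1 fell and 1 was not called, and with 9cRA 7 rose and 1 fell, where 23.7% of all genes were called higher with ATRA and 24.7% with 9cRA. Blocked by slide, 4 rose with ATRA and 2 with 9cRA, and 1 fell with each. The gene that fell with each was LAPTM5, which was below background on all retinoid arrays. PTPRC, the leukocyte antigen CD45, averaged 227.6% ± 11.5 with ATRA, 216.0% ± 22.5 with 9cRA, 129.5% ± 37.3 in the day 6 control and 176.0% ± 15.4 at day 0 (SD, n = 3 each). Its 2 tested probes differed by 0.31 and 0.86 with ATRA against day 6 control, and 1 of them was called. CD14 rose by 2.31 ± 0.09 with ATRA (lowest of its 3 probes 0.84), and ITGA2B, the platelet integrin, by 0.72 ± 0.16 (lowest of its 2 tested probes 0.25, not called). Their part in the VWF and EMCN results was not tested. LAPTM5 passed the filter on low signals only through day 0. It fell in the day 6 control against day 0, by 2.12 on the log2 scale, as APLNR and CLEC14A did. In that comparison 2 of the 8 rose, 3 fell and 3 were not called, where 30.9% of all genes were called higher and 31.3% lower.

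Of 11 pericyte and smooth muscle genes 9 were tested, and RGS5, a defining pericyte gene, was well above background on no array. Their summed level was 3661% to 3690% with ATRA, 3873% to 4084% with 9cRA, 15910% to 17470% in the day 6 control and 32840% to 33530% at day 0. With ATRA against day 6 control 1 rose, 5 fell and 3 were not called, with ACTA2 at -3.86 ± 0.11. There 23.7% of all genes were called higher and 22.4% lower. In the day 6 control against day 0, 0 rose, 5 fell and 4 were not called. PDGFRB was among the 5, and fell by 1.89 on the log2 scale. Over all genes 31.3% were called lower in that comparison. The part of these 5 genes in the APLNR and CLEC14A results was not tested. Of the lymphatic genes, PROX1 was 9.60% ± 1.58 with ATRA, 9.05% ± 1.68 with 9cRA, 2.21% ± 0.36 in the day 6 control and 0.526% ± 0.328 at day 0 (SD, n = 3 each), and rose by 2.12 ± 0.35 with ATRA. PROX1 passed the filter on low signals only through the retinoid groups, so its calls for those groups add no support. PDPN rose by 0.78 ± 0.08 and LYVE1 fell by 1.90 on the log2 scale with ATRA. LYVE1 was well above background on 1 of 3 arrays with each retinoid, at 1.52% ± 0.51 with ATRA. The size of its fall is therefore uncertain. Of the 3 lymphatic genes tested 2 rose and 1 fell with either retinoid, where 46.1% of all genes were called with ATRA and 46.4% with 9cRA. Blocked by slide, 2 rose and 0 fell with ATRA, and 1 rose and 0 fell with 9cRA, where PROX1 and LYVE1 were no longer called.

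Genes whose level ran most like a member's over the 12 arrays were found by Pearson's r among 10808 or 10809 genes with a symbol and a signal well above background on every array, as a description with no test. The 12 points come from 4 groups of 3 arrays and share those arrays and their scaling. For VWF the closest was PAX6 (r = 0.990), at 187.6% ± 3.9 with ATRA, 172.2% ± 6.3 with 9cRA, 110.2% ± 4.0 in the day 6 control and 113.8% ± 1.8 at day 0 (SD, n = 3 each), followed by ITGB7 (r = 0.990) and ZNF226 (r = 0.989). For EMCN they were PIGA (r = 0.991), RBM4B (r = 0.989) and PTGS2 (r = 0.989). For TEK they were XPC (r = 0.995), ZNF12 (r = 0.994) and TMEM107 (r = 0.991), and for KDR they were KDM5C (r = 0.987), NANOS3 (r = 0.985) and GAL3ST2 (r = 0.981). A high r does not mean changes of like size. PIGA averaged 18.01% with ATRA, 17.81% with 9cRA, 12.26% in the day 6 control and 12.15% at day 0. The EMCN values without retinoid and the KDR values at day 0 were below background on all arrays, which limits these correlations.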

How the data were processed

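Total RNA (100 ng per labelling, amplified from a poly-dT primer, per the labels' protocols) of 4 groups was hybridised to 12 arrays of 45220 spots, 1417 of them controls. The deposited array files hold spot intensity on a linear scale. The scanner images were read with Feature Extraction (version 10.7.3.1), and per the file headers background was subtracted and detrended, with no normalization between arrays. A second deposited table, with a column for each group, holds log2 values. They matched group means of the arrays' signals over the 75th percentile, with the probe's median subtracted (r = 0.935 to 0.992, column medians -0.01 to 0.02). In the authors' deposited table VWF's last probe is listed at 1.12 (ATRA), 0.73 (9cRA), -1.22 (day 6 control) and -0.83 (day 0). That table lists 9 of the 24 probes.

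Control spots and 191 outlier spots were left out, and 0 spots were saturated. Signals were divided by the array's 75th percentile (1094 to 1359) and put on the log2 scale. A gene was represented by its probe with the highest mean. Tested were the 17622 genes, 6 of the 9 described among them, whose probe passed the scanner's background mark on each of the 3 arrays in some group. A limma 3.58.1 model of the 4 group means (R 4.3.3, two-sided moderated tests) used the 12 arrays together, with Benjamini-Hochberg adjustment at 0.05. Adjusted p values of probes come from the same fit over probes. The fit was tested on simulated data. Probes were named through a RefSeq gene table of ARS-UCD2.0 by accession (28557), symbol (5115) or older symbol (138), and 9843 kept the file's name. Coordinates are the files' own, on UMD3.1.

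The members and gene lists were chosen with earlier results of these data known. Named genes were all members and measured ligands, up to 4 called genes of each list with the smallest adjusted p over culture and with ATRA, PTPRC, RGS5, PDGFRB and PDGFRA, and the 3 genes most correlated with a member. Some genes the rule takes are given only in counts. Alternatives were other scaling and background corrections, no filter on dim genes, slide as a fixed or random block, only the compared groups, and each array left out. No exon, promoter or protein sequence was used here.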

Additional observations from a re-analysis of the deposited data

How the results depend on the processing

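The members called numbered 5 in day 6 control against day 0, 3 with ATRA and 2 with 9cRA against day 6 control, and 6 with either retinoid against day 0. Leaving out each array gave 5, 2 to 4, 2 to 4 and 6 in both, and the count of 4 with 9cRA came without day 6 control array 3. ATRA against 9cRA called 0 in the main setting and in each leave-out, and 1 (VWF) with normexp background correction. Of all genes, the main setting called 62.2% in day 6 control against day 0. Against the day 6 control it called 46.1% with ATRA and 46.4% with 9cRA. The shares were 71.5% with ATRA and 71.3% with 9cRA against day 0, and 0.113% in ATRA against 9cRA. VWF and EMCN against the day 6 control, and APLNR and CLEC14A against day 0, kept their direction and call under the alternatives run with a test, but EMCN passed the filter on low signals only through the retinoid groups, and APLNR and CLEC14A only through day 0, so this is no sign of stability for these 3. KDR turned sign in 9cRA against day 6 control with slide as a fixed block (-0.0899). In ATRA against 9cRA it turned with quantile normalization (0.0043), normexp (0.0293), a fixed slide block (0.29) and a random slide block (0.0121), and ran from -0.17 to 0.14 over the arrays left out. The cause of these sign changes was not tested. A fixed slide block equals a within-slide estimate where a slide held both groups, and over all genes it called 4060 with 9cRA against day 6 control (8182 without it), 7044 with 9cRA against day 0 (12564 without it) and 33 in ATRA against 9cRA (20 without it). In ATRA against 9cRA the count was 5 with a random block, 13 with median scaling, 31 with quantile normalization, 34 with normexp, 4 with dim genes kept, 1 in a fit of these groups alone and 0 to 22 with an array left out. Median scaling moved the split of calls to 4714 higher and 6177 lower in day 6 control against day 0 (5448 and 5518 in the main setting), to 3246 and 4387 with ATRA against day 6 control (4178 and 3940), to 3341 and 4348 with 9cRA (4351 and 3831), to 5508 and 6932 with ATRA against day 0 (6812 and 5780) and to 5496 and 6789 with 9cRA against day 0 (6859 and 5705). No paired analysis was possible because the labels give 1 sample per group and no replicate numbers. Signals near background limit KDR, TIE1, PECAM1 and CDH5.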

Other observations

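Probes of these genes had 10 spots well above background on 1 array of a group while the other 2 arrays of that group were not, among 96 pairs of probe and group. Among them the VWF probe A_73_P091586 read 8.72% of the array's 75th percentile on day 6 control array 1, with 0.291% and 0.294% on the other arrays of the group. CDH5 read 8.57% on 9cRA array 2 and the APLNR probe A_73_P192512 6.71% on day 6 control array 3, where the other arrays read 0.296% and 0.654%. TIE1 read 3.34% on day 6 control array 2 and 2.21% on ATRA array 3.

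The hexamer AATAAA, the common polyadenylation signal, was searched on the probes' own strand. It was present in 3 of the 24 probes, those of APLNR (A_73_P051101), TEK (A_73_101983) and TIE1 (A_73_121339), and in 9.35% of all 43653 probes.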
